A study of Mus musculus with 2 samples.

Results

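The breakdown of the aromatic amino acids phenylalanine, tyrosine and tryptophan was described by 7 of the 8251 named genes measured on 2 arrays of mouse liver RNA. The genes were chosen by name, from a list of 9, as those with a probe set that the platform annotation assigns to a single gene. Pcbd1, Qdpr, Tat, Hpd, Hgd, Fah and Tdo2 qualified, with 8 of the 10833 single-gene probe sets between them, and Haao and Kmo were not analysed here. Both samples were total liver RNA of the same commercial catalogue item, with no treatment named, and each was read on 1 single-colour array. The labels give no strain, age or sex and do not say whether the RNA came from separate animals or lots, and the spread over the arrays may therefore be technical. The titles and descriptions name liver, while the source field names spleen.

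Aromatic amino acids are hydroxylated with tetrahydrobiopterin as cofactor, and the spent cofactor is recycled in the same cells. Tyrosine is then taken apart in the liver in a chain of steps that ends in fumarate and acetoacetate, and inherited loss of single enzymes of the chain causes tyrosinaemias and alkaptonuria. Tryptophan enters the kynurenine pathway, the route to NAD, through a dioxygenase made mainly by hepatocytes.

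Signal is the linear brightness of a probe set in the deposited table, and its trimmed mean (2% left out at each end) was 500.5 on both arrays. A background threshold was set on each array at the 95th percentile of 98 genes of other tissues (brain, testis, retina with lens, and striated muscle), which fell at 430.9 on replicate 1 and 452.3 on replicate 2. Of 7 hepatocyte markers, all 7 were above it on both arrays, with summed signals of 266488 and 289272 on replicates 1 and 2. Of 9 measured spleen and lymphocyte markers 1, Ighm, was above it, with sums of 1519 and 1564, of 7 Kupffer cell and macrophage markers 5 were, with sums of 8125 and 8054, and of 3 bile duct and 4 kidney tubule markers none was. With 1 group there was no comparison between conditions and no test. Having only 2 arrays limits the precision of every value.

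All 7 genes of aromatic amino acid breakdown were above background on both arrays, where 31.2% of all named genes were. Their signals ran from 504.2 for Hpd on replicate 1 to 35297 for Tdo2 on replicate 2. The percentile of a gene is its place by signal among the 8251 genes of an array, and the median over the 7 genes was 98.62 on replicate 1 and 98.59 on replicate 2. For the mean percentile over both arrays it was 98.61 for the 7 genes, against 49.7 for all named genes. A percentile over 95 on both arrays was found for 6 of the 7 genes, and for 4.85% of all named genes. Hpd was the exception. Brightness also depends on the sequence of the probes, so these values give a gene's place by signal and are no ranking of transcripts by abundance.

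**Figure D1:**
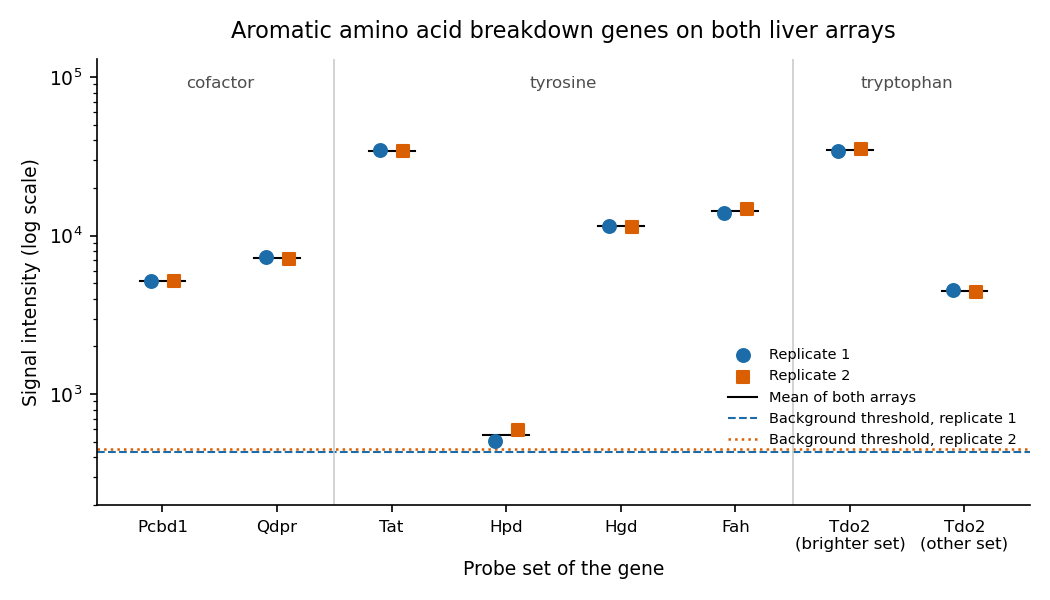
Signal intensity (log scale) of the 8 probe sets of the 7 genes on replicate 1 (circles) and replicate 2 (squares), with the mean of both arrays as a bar and the background threshold of each array as a line. The set of Tat and the brighter set of Tdo2 lie highest, between 34026 and 35297, and the set of Hpd lies just above the thresholds of 430.9 and 452.3.

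Pcbd1 and Qdpr recycle the cofactor tetrahydrobiopterin, and both were bright on both arrays. Pcbd1 encodes the dehydratase that takes water from the spent, hydroxylated pterin. Its signal was 5153 on replicate 1 and 5196 on replicate 2, a mean of 5174 ± 30.3 (SD, n = 2 arrays), which put it at ranks 287 and 291 of the 8251 genes. Qdpr encodes dihydropteridine reductase, which restores the tetrahydro form. Its signal was 7372 on replicate 1 and 7109 on replicate 2, with a mean of 7240 ± 186 (SD, n = 2 arrays). Both lay far above background, with signals 11.96 and 11.49 times the threshold of replicates 1 and 2 for Pcbd1 and 17.11 and 15.72 times for Qdpr.

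The 4 genes of the tyrosine chain covered its opening steps and its end. Tat, tyrosine aminotransferase, removes the amino group in the entry step and is a classical target of glucocorticoids in liver. Its signal was 34694 on replicate 1 and 34026 on replicate 2, a mean of 34360 ± 472 (SD, n = 2 arrays), at ranks 17 and 21. Hpd is the hydroxyphenylpyruvate dioxygenase that makes homogentisate. Its signal was 504.2 on replicate 1 and 598.3 on replicate 2. Its mean was 551.2 ± 66.5 (SD, n = 2 arrays), and it ranked 2523 and 2155. These signals were 1.17 and 1.32 times the thresholds, a small margin on each array. A threshold at the 99th percentile of the same background genes, 991.6 and 907.0, left Hpd as the 1 gene of the 7 that was not above it.

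Hgd, homogentisate dioxygenase, opens the aromatic ring. Its signal was 11475 on replicate 1 and 11405 on replicate 2, a mean of 11440 ± 49.9 (SD, n = 2 arrays), and it ranked 114 and 117. Fah, fumarylacetoacetate hydrolase, catalyses the last step. Its signal was 13907 on replicate 1 and 14664 on replicate 2, with a mean of 14286 ± 535 (SD, n = 2 arrays) and ranks of 87 and 83. Of the 4 genes of the chain, Hpd was the one below percentile 95 on both arrays, and it was read from a single probe set.

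Tdo2, tryptophan dioxygenase, opens the indole ring in the entry step of the kynurenine pathway. It was the only 1 of the 7 genes with more than 1 probe set. The brighter set gave 34284 on replicate 1 and 35297 on replicate 2, with a mean of 34791 ± 716 (SD, n = 2 arrays) and rank 18 on both arrays. The other set gave 4549 on replicate 1 and 4428 on replicate 2, with a mean of 4489 ± 85.4 (SD, n = 2 arrays). The sets of this 1 gene thus differed by 7.54 times on replicate 1 and 7.97 times on replicate 2, while each differed little between arrays. Leaving out all probe sets whose names carry a suffix, which removes the brighter set (suffix g), put Tdo2 at a mean percentile of 96.34, against 99.79 with it. The most brightly read gene was Tat on replicate 1 and Tdo2 on replicate 2, so their order differed between the arrays.

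**Figure D2:**
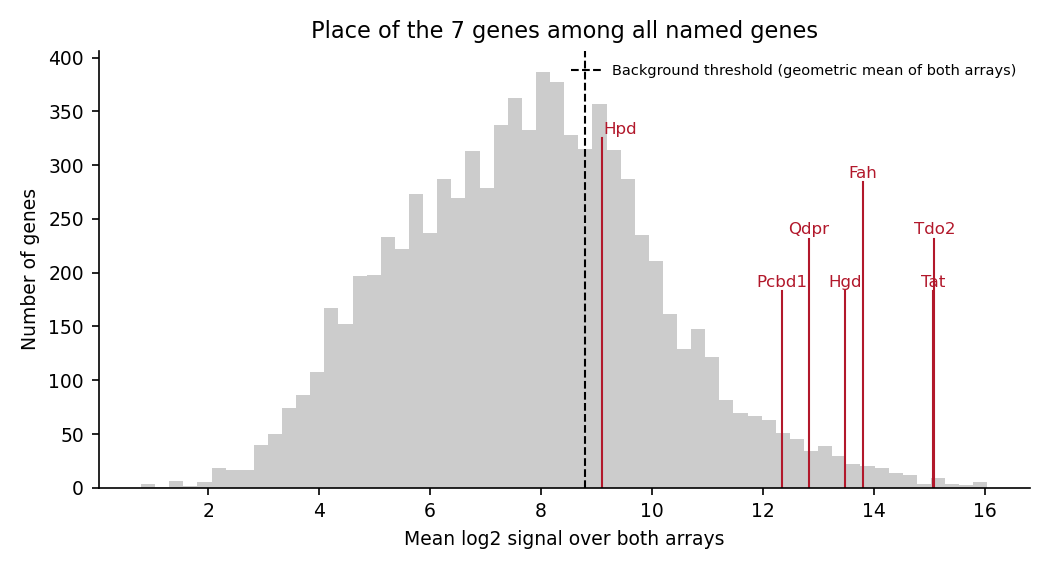
Number of named genes by mean log2 signal over both arrays (grey), with the 7 genes marked in red and the background threshold as a dashed line. Hpd lies near the threshold, inside the bulk of the genes, and the other 6 lie in the bright tail.

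The arrays gave nearly the same values for these genes. The log2 difference, replicate 2 minus replicate 1 after subtracting the median difference of the brighter 50% of probe sets, was 0.25 for Hpd, 0.08 for Fah, 0.05 for Tdo2, 0.02 for Pcbd1, -0.003 for Hgd, -0.02 for Tat and -0.05 for Qdpr. None of the 7 differed by more than 2-fold, where 14.0% of all named genes and 1.11% of the brighter 50% of genes did. The median absolute log2 difference was 0.05 over the 7 genes and 0.28 over all named genes. Differences shrink with signal, and the 6 brighter genes lay in the brightest of 10 bins of signal, where the median absolute log2 difference over all 825 genes was 0.09 and 0.00% of genes differed over 2-fold. Hpd lay in the eighth bin, where the median absolute difference was 0.16 and the 90th percentile was 0.42, so that its difference was above the typical one of that bin and within its range. Each difference rests on a single array per side and was not replicated.

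**Figure D3:**
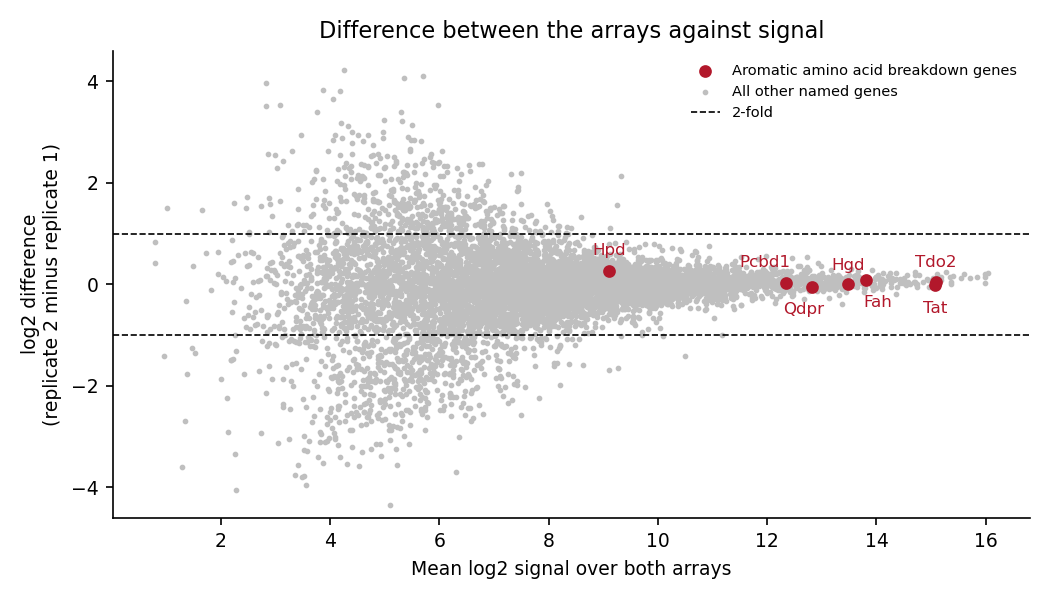
log2 difference between the arrays, replicate 2 minus replicate 1, against mean log2 signal for the 7 genes (red) and all other named genes (grey), with dashed lines at 2-fold. The red points lie between -0.05 and 0.25, in the narrow right-hand part of the cloud except for Hpd.

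The other genes of these pathways were read from a list of 50, of which 31 were measured. Of these, 20 were above background on both arrays, where 31.2% of all named genes were. The median percentile of the 31 was 81.91. Of 6 measured genes of phenylalanine and tyrosine metabolism 3 were above background. Gstz1, the isomerase that works between Hgd and Fah, was read at 11727 on replicate 1 and 10523 on replicate 2. With it, 4 of the 5 measured enzymes of the tyrosine chain (Tat, Hgd, Gstz1 and Fah) stood above percentile 98, and Hpd at 71.65. Got2, mitochondrial aspartate aminotransferase, gave 1184 on replicate 1 and 1261 on replicate 2 from a set of suffix r, and its other set gave 14.8 and 57.6. Pcbd2, the paralogue of Pcbd1, gave 974.3 and 993.7. Got1, the cytosolic aminotransferase, was lowest at 11 and 4.7, and it was read from a single probe set. It differed over 2-fold between the arrays at a level far below background.

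All 3 measured genes of tetrahydrobiopterin supply were above background. Gch1, the GTP cyclohydrolase that starts the synthesis, gave 1196 on replicate 1 and 1219 on replicate 2. Spr, sepiapterin reductase, gave 1042 and 950.8, and Pts, the pyruvoyl synthase between them, gave 594.8 and 557.6. Their median percentile was 83.52, against 96.50 for Pcbd1 and 97.55 for Qdpr, the genes of cofactor recycling.

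Of 8 measured genes of tryptophan and NAD metabolism beyond Tdo2, 4 were above background. Gcdh, the dehydrogenase of glutaryl-CoA to which tryptophan and lysine breakdown lead, gave 8152 on replicate 1 and 7364 on replicate 2, and its other set gave 127.7 and 146.7. Kyat3, a kynurenine aminotransferase, gave 1719 and 1695, and Ddc, the aromatic amino acid decarboxylase, gave 1323 and 1085. Ido1, the dioxygenase that opens tryptophan mainly outside hepatocytes, was not above background, with 136.2 and 131.8 in its brighter set and 20.2 and 10.1 in the other. Tph1, the hydroxylase of serotonin synthesis, was lowest at 17.9 and 35.7, below background on both arrays, and its other set gave 8.2 and 12.4. Its log2 difference of 1.00 was at the 2-fold limit and passed it only through the subtracted median difference. Kynu, Afmid and Acmsd were not analysed here.

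All 4 measured genes of enzymes that use the products or related aldehydes were above background, led by the aldehyde dehydrogenase Aldh2 at 8268 on replicate 1 and 8392 on replicate 2. Its other sets gave 4448 and 3780, and 2607 and 2325. Hadh, a hydroxyacyl-CoA dehydrogenase, gave 5375 and 5789, and Aldh9a1 gave 2382 and 2489. Aldh3a2 gave 4184 and 4171 in its brighter set and 541.9 and 625.6, closer to the thresholds, in the other. Of 10 measured transcription factors known to act on liver genes of this kind 6 were above background. Cebpa gave 9564 on replicate 1 and 10542 on replicate 2, Cebpb 5489 and 5971, and Hnf4a 1454 and 1602. Nr3c1, the glucocorticoid receptor, was the lowest at 56.9 and 47.2, from a single probe set and not above background. Prox1 gave 70.8 and 190.7, over 2-fold apart and not above background on either array.

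**Figure D4:**
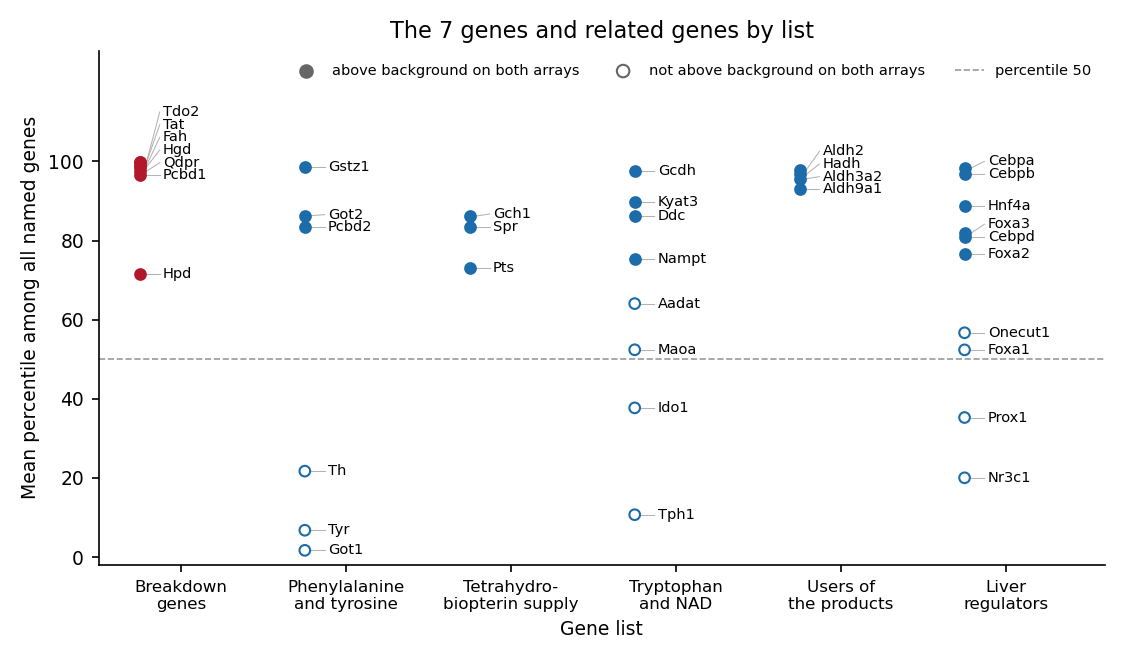
Mean percentile over both arrays of the 7 breakdown genes (red) and of the measured genes of 5 related lists (blue), with filled points above background on both arrays and open points not above it. Of the 7 breakdown genes 6 lie above percentile 96, and the related lists spread from 1.69 for Got1 to 98.55 for Gstz1.

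Lists of neighbouring amino acid pathways were set beside the 7 genes as a description. Above background were 7 of 7 genes of aromatic amino acid breakdown, against 7 of 8 of the urea cycle and ammonia handling. It was 7 of 10 for aminotransferases and deamination and 9 of 12 for the methionine cycle. Of all named genes 31.2% were above background on both arrays. The median percentile was 98.61 for the 7 genes, against 95.48 for the urea cycle list, 88.55 for the aminotransferase list and 92.91 for the methionine cycle list. For the 21 measured enzymes of the related lists beyond the 7 genes it was 83.52, lower than for each of these lists. Of those 21 enzymes, 14 were above background. The aminotransferase list shares Got1 and Got2 with the phenylalanine and tyrosine list above. The lists are read from different probes, were chosen with earlier results of these data known, and were not tested against each other.

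The stretch upstream of the start was matched for all 7 genes by symbol in RefSeq sequences of assembly GRCm38.p6. The 250 bases before the start are shown for Tdo2 and Tat, which gave the brightest signals, for Hpd, which gave the dimmest, and for Pcbd1, one of the genes of cofactor recycling. They are written 5′ to 3′ on the strand of the gene, at chr3:81975729-81975978 on the minus strand for Tdo2, chr8:109990186-109990435 on the plus strand for Tat, chr5:123182724-123182973 on the minus strand for Hpd and chr10:61089081-61089330 on the plus strand for Pcbd1. Capitals mark matches, on either strand, to TATAAA, to TTGCGCAA (a C/EBP site) or to TGTTCT (one side of the glucocorticoid response element).
Tdo2: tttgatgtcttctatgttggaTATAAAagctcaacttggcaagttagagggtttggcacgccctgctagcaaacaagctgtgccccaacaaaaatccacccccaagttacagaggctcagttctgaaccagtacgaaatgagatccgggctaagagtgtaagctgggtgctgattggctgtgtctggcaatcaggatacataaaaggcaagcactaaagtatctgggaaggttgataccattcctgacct
Tat: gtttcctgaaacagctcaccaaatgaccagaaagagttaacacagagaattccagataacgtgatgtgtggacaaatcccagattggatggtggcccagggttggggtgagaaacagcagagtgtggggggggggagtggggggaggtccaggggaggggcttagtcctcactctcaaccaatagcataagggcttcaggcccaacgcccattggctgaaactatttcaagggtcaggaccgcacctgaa
Hpd: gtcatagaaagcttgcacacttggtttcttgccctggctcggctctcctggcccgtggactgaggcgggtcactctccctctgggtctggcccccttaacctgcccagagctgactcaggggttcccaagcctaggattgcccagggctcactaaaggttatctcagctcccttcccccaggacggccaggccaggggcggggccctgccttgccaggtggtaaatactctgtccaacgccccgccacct
Pcbd1: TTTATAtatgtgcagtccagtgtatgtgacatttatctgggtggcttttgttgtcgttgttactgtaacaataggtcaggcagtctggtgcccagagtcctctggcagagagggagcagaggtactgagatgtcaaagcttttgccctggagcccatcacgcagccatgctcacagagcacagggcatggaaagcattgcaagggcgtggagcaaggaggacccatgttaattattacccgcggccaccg

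Matches were few, and no match overlapped another. TATAAA was found in Tdo2, Hgd and Pcbd1, starting 229, 139 and 250 bases before the start. In Hgd and Pcbd1 the match was on the strand opposite to the gene. TATAAA is held in this window by 12.4% of the 32851 promoters. TTGCGCAA and TGTTCT were in none of the 7 windows, and 0.164% and 16.1% of promoters hold them. The number of CG pairs in the window was 21 in Qdpr, 16 in Fah, 7 in Hpd, 6 in Pcbd1, 3 in Tat, 3 in Tdo2 and 1 in Hgd, with a median of 6 over all promoters. The windows of Tat and Tdo2 thus held 3 CG pairs each, and that of Hpd held 7. A match is a description of the letters and not evidence of binding. Sites outside the 250 bases were not looked at, so the lack of a match here says nothing about them.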

How the data were processed

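The 2 samples were read on 1 array each. The deposited table holds signal intensity on a linear scale, 1 value for each of 12488 probe sets, as the authors deposited it. How the probes were summarised, scaled and corrected for background, and with which software, is not given in the sources used here, and these steps can change low signals most. The members and gene lists were chosen with earlier results of these data known. Both samples form 1 group from their titles, so no test was made.

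Probe sets naming 1 gene and not array controls were used (10833), and a gene was read from its set with the highest mean log2 signal. All 7 gene identifiers matched RefSeq (GRCm38.p6) with no symbol changed. Percentiles, background thresholds, log2 differences and 2-fold counts were computed with Python 3.11.15, numpy 2.4.6 and pandas 2.3.3, and tested on simulated data. The simulated noise was the same at all signal levels, unlike that of the arrays, so the simulation checks the calculations only. The named genes are all members, the 3 highest and the lowest of each pathway list, a few fixed genes where measured, and genes differing over 2-fold. A few planned items are not reported here. Promoter strands were checked by where TATAAA is most frequent, which was 30 and 29 bases before the start on the plus and minus strands. Alternatives were quantile normalization, log2(value + 32), the mean of a gene's sets, no suffixed sets, other thresholds, no shift, percentiles over probe sets, and each array alone.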

Additional observations from a re-analysis of the deposited data

How the results depend on the processing

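The count of 7 genes above background held in 8 of 9 alternatives, but most of these could hardly lower it. It was 6 with a threshold at the 99th percentile of the background genes, where Hpd was not above it. The thresholds at the 90th percentile of the background genes and at the median of all genes are lower than the one used. Each array alone asks less than both together. The count could not fall under any of these settings. Quantile normalization and the log2 with an added constant keep the order of genes on each array. The threshold is a percentile on the same array, so these could hardly change the count either. Of the settings left, the 99th percentile lowered the count. Averaging the sets of a gene and leaving out suffixed sets did not. The count of related genes above background was 20, and ran from 14 (99th percentile) to 24 (median of all genes as threshold). No alternative put any of the 7 genes past 2-fold between arrays. The median percentile of the 7 genes was 98.61, and became 98.87 when the sets of a gene were averaged and 97.85 when suffixed probe sets were left out. It ran from 98.59 to 98.62 with each array alone. The median log2 difference between arrays was 0.02 and ran from -0.02 (quantile normalization) to 0.02, so its sign is not settled. Of 35 percentiles of single genes recomputed on both arrays, 18 moved by more than the spread between arrays. The 35 include those under quantile normalization and the log2 with an added constant, which keep the order of genes and changed no percentile. Every gene moved when its sets were averaged, and all but Hpd did without suffixed sets. With percentiles over probe sets, all but Qdpr and Hgd moved. The percentiles were thus less stable than 18 of 35 makes them look. Over all alternatives, single arrays included, percentiles ran for Hpd from 69.42 to 77.36 and for Tdo2 from 96.34 to 99.83. No paired analysis was possible because the samples form 1 group. Signal close to background limits Hpd, and with 2 arrays no difference between them can be checked.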
